A study of Mus musculus with 2 samples.

Results

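The 9 genes described here, *Scn7a*, *Gfra3*, *Cdh19*, *Fabp7*, *Lgi4*, *Ngfr*, *Gap43*, *L1cam* and *Gdnf*, are known for their expression in Schwann cells that do not myelinate or that respond to nerve injury. They are a list of symbols set with earlier results of these data known, not chosen by a threshold on their values, and are 9 of the 31053 genes counted. The data were single-cell RNA sequencing of periodontal tissue (gingiva and the surface of the alveolar bone) of wild-type (WT) C57BL/6 mice aged 8 weeks. The control library came from mice with no treatment and the LIP library from mice with ligature-induced periodontitis, 7 days after a thread was tied around a tooth. Cells of 5 mice were pooled in each library, so that each condition was 1 sample. No test between conditions was therefore possible, and every interval below is an exact 95% interval that covers counting error only, not differences between mice.

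Schwann cells are the glia of peripheral nerves. Myelinating Schwann cells wrap single large axons and make large amounts of myelin proteins such as Mbp, whereas non-myelinating (Remak) cells hold bundles of thin axons, many of them sensory fibres for pain. After an axon is damaged, Schwann cells switch off myelin genes, and factors such as Jun and Sox2 drive a repair state in which Ngfr, Gap43, L1cam and the growth factor Gdnf are typically raised. Gingiva and periodontal ligament are densely supplied by such sensory nerves.

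The LIP library held 1212 barcodes and 14236327 UMIs (unique molecular identifiers, 1 per captured RNA molecule), and the control library 1169 barcodes and 16472915 UMIs. After filtering, 936 LIP and 883 control cells remained, with medians of 5595 and 10845 UMIs per cell. Only 2 barcodes occurred in both libraries, and neither was a kept Schwann-like cell. Schwann-like cells numbered 103 in the LIP library (11.0% of kept cells, 9.07 to 13.2) and 37 in the control library (4.19%, 2.97 to 5.73), shares that depend on how many other cells were recovered. All 14 Schwann markers used for naming, which include none of the 9 genes, were found in them.

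The Schwann-like cells formed 2 sub-clusters in both libraries, and the 9 genes were left out of the clustering. The leading genes of the larger included *Mbp*, *Ncmap* and *Prx*, and it had 75 LIP and 17 control cells. It is called myelin-high below, because 15 myelin genes made up a median of 9.56% of the UMIs of its LIP cells and 9.82% of those of its control cells. The other sub-cluster, called myelin-low, held 28 LIP and 20 control cells, with a median of 0.605% and 0.570% of UMIs from the same genes. Its leading genes against all other cells included *Kcna1*, *Kcna2*, *Nrn1* and *Adam23*, and all 14 Schwann markers were found in it. *Kcna1* was not particular to it. That gene had a UMI in 48 of 75 LIP and 16 of 17 control myelin-high cells, against 25 of 28 and 18 of 20 myelin-low cells. *Sox10*, the transcription factor of the lineage, had a UMI in 25 of the 28 LIP and 17 of the 20 control cells. The ranges of the myelin share did not overlap, with a highest value of 2.32% in the myelin-low LIP cells and a lowest of 2.54% in the myelin-high LIP cells. In the control library the highest and lowest values were 2.18% and 4.81%.

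Promoters are shown for 3 members whose UMIs in Schwann-like cells lay almost wholly in the myelin-low cells. RefSeq windows (GRCm38.p6) were available for 5 of the 9 genes. The stretches before the start of *Scn7a* (chr2:66784915-66785160, minus strand), *Fabp7* (chr10:57784673-57784880, plus strand) and *Ngfr* (chr11:95587736-95587948, minus strand) are given 5′ to 3′, cut where the GENCODE vM21 gene begins.
Scn7a: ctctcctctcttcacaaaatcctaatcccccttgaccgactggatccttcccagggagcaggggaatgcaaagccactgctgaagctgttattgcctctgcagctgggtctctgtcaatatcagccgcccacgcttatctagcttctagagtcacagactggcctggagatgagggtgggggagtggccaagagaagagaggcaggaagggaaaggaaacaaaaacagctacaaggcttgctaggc
Fabp7: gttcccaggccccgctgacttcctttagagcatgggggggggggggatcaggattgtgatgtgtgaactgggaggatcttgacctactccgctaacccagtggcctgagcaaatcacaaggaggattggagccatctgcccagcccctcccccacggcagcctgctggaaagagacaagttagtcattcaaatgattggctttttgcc
Ngfr: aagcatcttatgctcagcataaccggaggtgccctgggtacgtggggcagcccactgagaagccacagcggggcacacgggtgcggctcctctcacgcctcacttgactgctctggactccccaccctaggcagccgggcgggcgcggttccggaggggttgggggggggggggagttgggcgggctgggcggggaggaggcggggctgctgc
Capitals would mark 2 kinds of motif, the SOX core (ACAAAG or ACAATG, the letters bound by Sox10 and Sox2) and the AP-1 site (TGANTCA, bound by Jun with its partners), both searched on both strands. Neither occurred in any of the 7 windows of 250 bases for *Scn7a*, *Fabp7*, *Ngfr*, *L1cam* and *Gdnf*. Both *L1cam* windows, which overlap each other, and a *Gdnf* window lie inside the GENCODE gene. Of all 32851 windows, 25.2% held a SOX core and 6.75% an AP-1 site. No match says only that these letters are absent from these windows.

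Among Schwann-like cells, the 9 genes were concentrated in the myelin-low cells. Of their 1058 UMIs in all kept LIP cells, 768 (72.6%, 69.8 to 75.3) lay in Schwann-like cells, and 725 of these in the 28 myelin-low cells. In the control library Schwann-like cells held 512 of 1153 UMIs (44.4%, 41.5 to 47.3), of which 495 lay in the 20 myelin-low cells. The genes differed in this. The myelin-low share of a gene's UMIs in all kept cells ran from 36.0% (*L1cam*) to 98.75% (*Gfra3*) in LIP. In control it ran from 4.48% (*Gap43*) to 100% (*Gfra3*). A myelin-low cell had a UMI of 0 to 8 of the 9 genes, with a median of 5 in the LIP and 4 in the control library. At least 3 of the genes were found in 25 of 28 LIP and 17 of 20 control myelin-low cells, but in 0 of 75 LIP and 0 of 17 control myelin-high cells. Myelin-low cells had medians of 5044.5 (LIP) and 3770 (control) UMIs, and myelin-high cells 2773 and 4825. When each cell was thinned to 1000 UMIs, leaving out 1 control myelin-low and 14 LIP myelin-high cells, the median number of the genes found was 2.5 and 3 in the myelin-low and 0 in both groups of myelin-high cells.

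**Figure D1:**
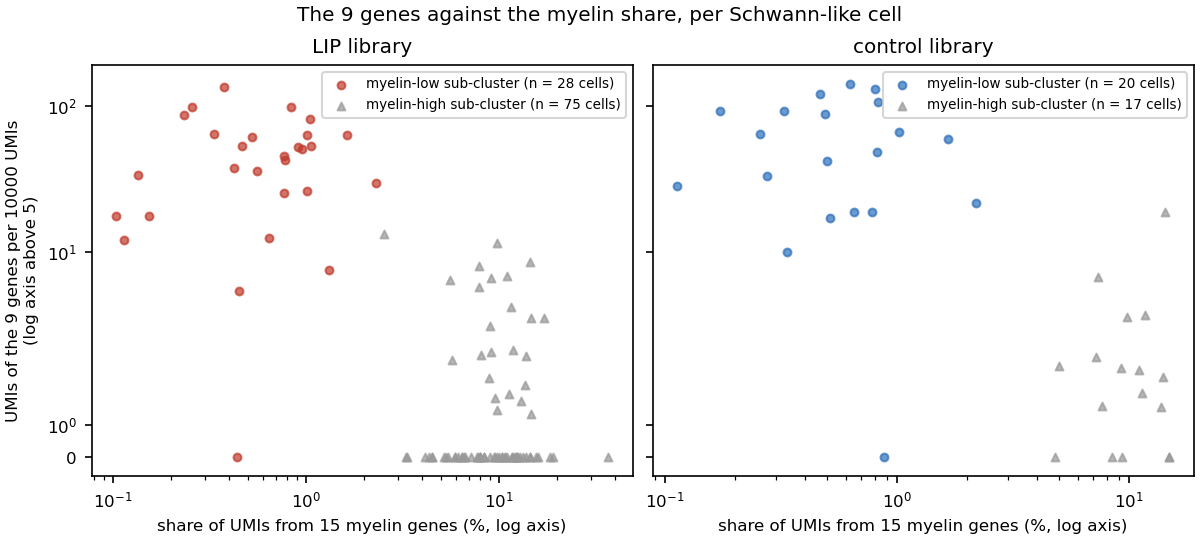
UMIs of the 9 genes per 10000 UMIs (vertical, logarithmic above 5) against the share of UMIs from 15 myelin genes (horizontal, in percent, logarithmic), with 1 point per Schwann-like cell and 1 panel per library. Circles are myelin-low cells (28 LIP, 20 control) and triangles myelin-high cells (75 LIP, 17 control). All but 1 myelin-low cell in each library had a UMI of the genes. Of the myelin-high cells, 51 of 75 in LIP and 5 of 17 in control had none, at medians of 2773 and 4825 UMIs.

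*Scn7a* (chr2:66673425-66784914, minus strand, GENCODE vM21 on mm10), the sodium channel Nax that opens in response to sodium outside the cell, was the member with the most UMIs in Schwann-like cells. It had 232 UMIs in the LIP and 191 in the control myelin-low cells, that is 1350 CPM (UMIs per 1000000 UMIs of the class, 1182 to 1535) and 2074 CPM (1790 to 2390). In the myelin-high cells it had 3 and 1 UMIs (11.2 and 12.2 CPM). The ratio of myelin-low to myelin-high cells was 121 in the LIP library, a log2 ratio of 6.92 (5.35 to 9.21), and its log2 ratio in the control library was 7.41 (4.91 to 12.7). The gene was found in 23 of 28 and 15 of 20 myelin-low cells. It was found in 0 of 79 LIP and 0 of 48 control vascular endothelial-like cells, which should lack it (medians of 8504 and 5784.5 UMIs). There a floor of 3 cells of the total was 3.80% and 6.25%, and the exact upper limits were 4.56% and 7.40%.

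The adhesion molecules followed. *Cdh19* (chr1:110888326-110977584, minus strand), a cadherin of the Schwann lineage, had 87 UMIs in the LIP and 77 in the control myelin-low cells (506 and 836 CPM) against 13 and 7 in the myelin-high cells (48.4 and 85.4 CPM). Its log2 ratios of myelin-low to myelin-high cells were 3.39 (2.54 to 4.35) and 3.29 (2.18 to 4.65). It was thus lower but present in the myelin-high cells, in 10 of 75 and 6 of 17 of them. *L1cam* (chrX:73853778-73896105, minus strand), an immunoglobulin-type adhesion protein of axons and of Schwann cells without myelin, had 58 and 38 UMIs in the myelin-low cells (338 and 413 CPM) and none in the myelin-high cells. Against a floor of 3 counts it was at least 30.2-fold (LIP) and at least 11.3-fold (control) higher in the myelin-low cells. Such a fold, here and below, is the ratio to that floor and not the lower end of a counting interval.

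Receptors differed in the same direction. *Gfra3* (chr18:34689898-34720387, minus strand), the co-receptor through which artemin acts on Ret, had 79 UMIs in the LIP and 69 in the control myelin-low cells (460 and 749 CPM), and none in the myelin-high cells of either library. It was at least 41.2-fold and at least 20.5-fold higher in the myelin-low cells. Only a part of the myelin-low cells carried it, 12 of 28 LIP cells (42.9%, 24.5 to 62.8) and 8 of 20 control cells (40.0%, 19.1 to 63.9), with up to 19 and 14 UMIs in 1 cell. *Ngfr* (chr11:95568818-95587735, minus strand), the p75 neurotrophin receptor, had 38 and 18 UMIs in the myelin-low cells (221 and 195 CPM) and none in the myelin-high cells. It was at least 19.8-fold higher in LIP, and at least 5.34-fold in control, where it had fewer than 20 UMIs. It was found in 15 of 28 and 8 of 20 myelin-low cells.

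Of the secreted ligands, *Lgi4* (chr7:31059342-31070935, plus strand), which Schwann cells release and whose known receptor is Adam22, was the least restricted to the myelin-low cells. It had 90 and 76 UMIs there (524 and 825 CPM) and 26 and 9 in the myelin-high cells (96.7 and 110 CPM). The log2 ratios were 2.44 (1.79 to 3.13) in LIP and 2.91 (1.91 to 4.09) in control, and 17 of 75 and 7 of 17 myelin-high cells had a UMI. *Gdnf* (chr15:7810846-7837575, plus strand), the ligand of Gfra1 and Ret, had 3 UMIs in the myelin-low cells of each library, all in 1 cell in LIP and in 2 cells in control, and no fold was computed for it. It had 0 UMIs in the myelin-high cells, where the floor of 3 counts was 11.2 CPM (LIP) and 36.6 CPM (control). The exact upper limits there were 13.7 and 45.0 CPM.

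Of the intracellular proteins, *Fabp7* (chr10:57784881-57788450, plus strand), a fatty acid carrier of immature and non-myelinating glia, had 113 UMIs in the LIP and 20 in the control myelin-low cells (658 and 217 CPM) and 1 and 0 in the myelin-high cells. It was found in 8 of 28 and 10 of 20 myelin-low cells. Its log2 ratio of myelin-low to myelin-high LIP cells was 7.47 (4.96 to 12.8), and in control it was at least 5.93-fold higher. *Gap43* (chr16:42248442-42340651, minus strand), a growth cone protein that Schwann cells make after losing contact with axons, had 25 and 3 UMIs in the myelin-low cells, in 6 of 28 and 3 of 20 cells, and none in the myelin-high cells. In LIP it was at least 13.0-fold higher, and in control too few UMIs were present for a ratio.

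A gene was compared where it had at least 20 UMIs over both sub-clusters. In LIP, *Scn7a*, *Gfra3*, *Cdh19*, *Fabp7*, *Lgi4*, *Ngfr*, *Gap43* and *L1cam* did so, and all were at or past 2-fold higher in the myelin-low cells, as were 19.4% of the 3532 genes compared. In control *Scn7a*, *Gfra3*, *Cdh19*, *Fabp7*, *Lgi4* and *L1cam* did so, all at or past 2-fold higher, as were 22.1% of 1546 genes. Most of these genes reached 20 UMIs through the myelin-low cells alone and then had to differ, so these counts support nothing beyond the values above. Only *Cdh19* and *Lgi4* had more than 3 UMIs in the myelin-high cells of either library. The same holds for a comparison of the lowest with the highest of 3 equal parts of the Schwann-like cells ranked by myelin share, where the genes compared were again higher in the myelin-poor part (22.7% of all genes in LIP and 19.3% in control). Those parts overlap with the sub-clusters. In LIP the middle part, with a myelin share from 4.53% to 9.83% and no myelin-low cell, had 0 UMIs of *Gfra3*, *Fabp7*, *Ngfr*, *Gap43* and *L1cam*. In control the middle part reached from 0.778% to 7.67% and held 8 myelin-low cells, with 21, 6, 9, 1 and 11 UMIs of these genes.

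**Figure D2:**
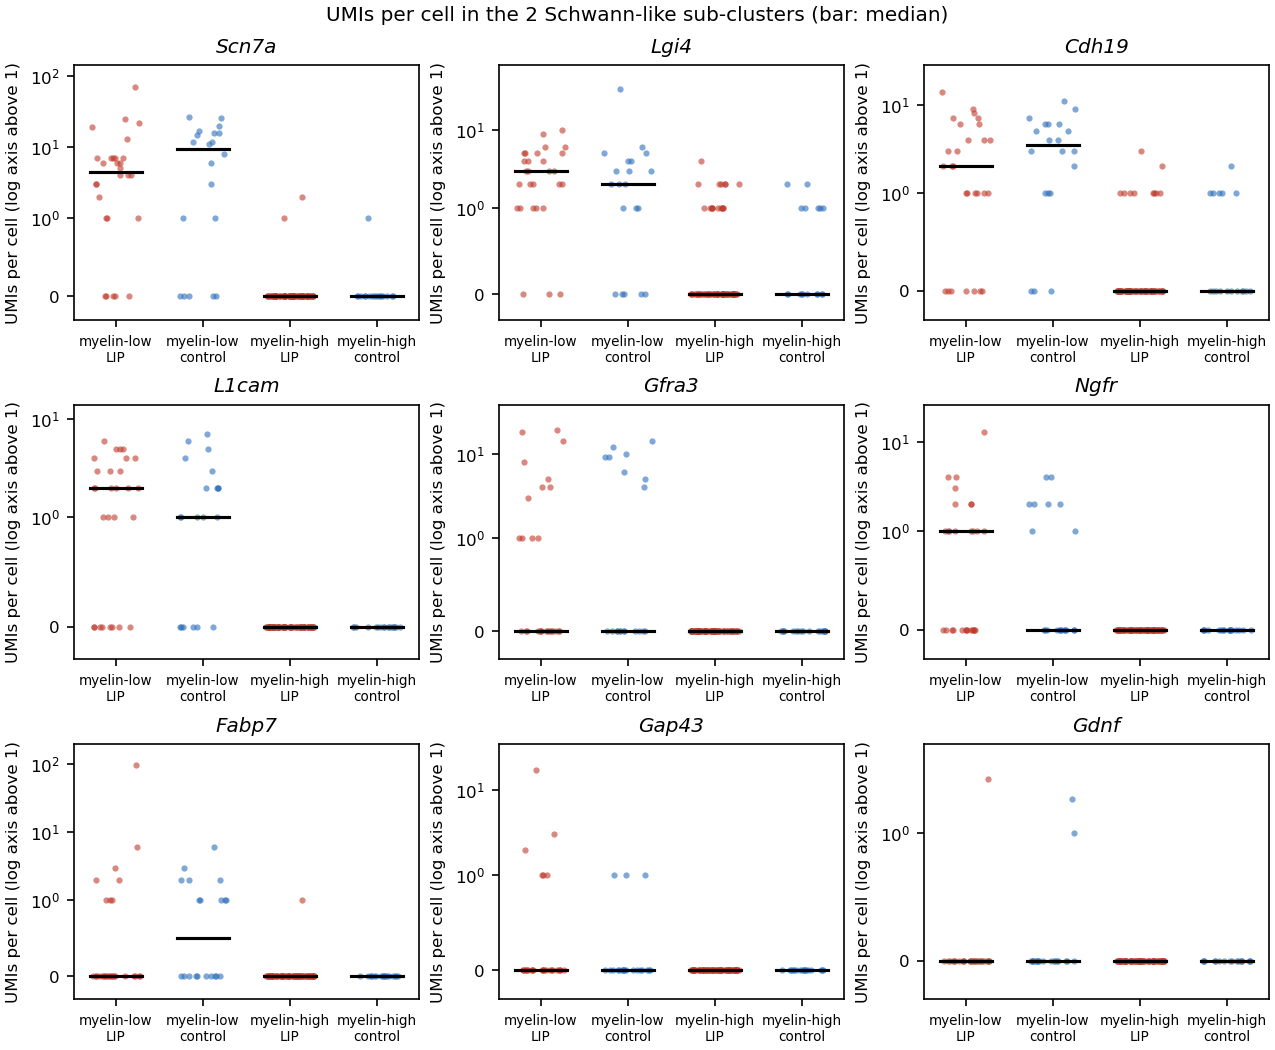
UMIs per cell (vertical, logarithmic above 1) of each of the 9 genes in the myelin-low and myelin-high cells of the LIP (red) and control (blue) libraries, with 1 point per cell and a bar at the median. *Scn7a* has medians of 4.5 and 9.5 UMIs in myelin-low LIP and control cells and 0 in both groups of myelin-high cells, and *Fabp7* has 1 LIP cell with 97 UMIs.

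Other genes of the same pathways were read beside the 9, and these were not left out of the clustering. Among the other GDNF family ligands and receptors, *Ret*, the signalling receptor, had 0 UMIs in the Schwann-like cells of both libraries. The floor of 3 counts there was 6.81 CPM in LIP and 17.2 CPM in control. *Gfra2*, the co-receptor for neurturin, had 30 UMIs in LIP myelin-low cells against 1 in myelin-high cells (log2 ratio 5.55, 2.96 to 10.9), and 21 against 0 in control. *Artn*, the ligand of Gfra3, had 2 UMIs in LIP and 1 in control Schwann-like cells. Among neurotrophin genes *Ntrk2*, a receptor gene for Bdnf, had 26 against 3 UMIs in LIP (3.76, 2.05 to 6.13) and 10 against 0 in control. Of the receptors of LGI proteins, *Adam23* had 70 against 2 UMIs in LIP (5.77, 3.87 to 8.85) and 41 against 2 in control (4.19, 2.24 to 7.28), whereas *Adam22*, the receptor known for Lgi4, had 0 UMIs in LIP and 3 in control myelin-low cells.

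Of 10 further genes known for non-myelinating Schwann cells, 6 could be compared in LIP, where 19.4% of all genes were at or past 2-fold higher in the myelin-low cells (22.1% in control). *Ncam1*, *Apod*, *Sox2*, *Cadm2* and *Chl1* were at or past 2-fold higher in the myelin-low cells and *Emid1* lower. In control 5 could be compared, with *Ncam1*, *Apod*, *Cadm2* and *Chl1* higher and *Emid1* lower. Like most of the 9 genes, *Ncam1*, *Cadm2* and *Chl1* reached 20 UMIs through the myelin-low cells alone, and *Emid1* through the myelin-high cells. None of the 10 genes was left out of the clustering, so these counts support nothing beyond the values. *Ncam1*, an adhesion molecule of Remak cells, had 66 against 0 UMIs in LIP and 33 against 2 in control. *Emid1* had 0 against 47 UMIs in LIP and 3 against 26 in control. *Apod* counts came from few cells: 9 of 28 LIP myelin-low cells held 536 UMIs, 358 of them in 1 cell. Markers of other cell types were also found in the myelin-low cells, where the 14 Schwann markers summed to 12016 CPM in LIP and 14538 CPM in control. Of 12 fibroblast markers, 5 were found in LIP and 8 in control, with sums of 3381 and 5190 CPM (581 and 478 UMIs), more than any of the 9 genes. The sums were 1542 and 727 CPM for osteogenic markers (4 and 2 of 12 found), 803 and 1303 CPM for macrophage markers (4 and 2 of 12) and 483 and 402 CPM for neutrophil markers (7 and 6 of 12). Of 8 neuron markers, *Tubb3* alone was found in LIP (56 UMIs in 8 cells, 28 in 1 cell) and 2 markers in control (8 UMIs), and of 8 skeletal muscle markers none was found in either library. The part of such RNA in the values of the 9 genes was not tested.

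The second comparison was LIP against control. Over all Schwann-like cells, *Scn7a*, *Gfra3* and *Cdh19* were at or past 2-fold lower in LIP, with 533 against 1103, 179 against 396 and 227 against 483 CPM. *Fabp7* (259 against 115 CPM) and *Gap43* (56.7 against 17.2 CPM) were at or past 2-fold higher. Of 4754 genes compared, 7.19% were at or past 2-fold lower and 6.18% higher. The log2 ratios were -1.05 (-1.33 to -0.77) for *Scn7a*, -1.15 (-1.63 to -0.66) for *Gfra3* and -1.09 (-1.52 to -0.65) for *Cdh19*. They were 1.17 (0.48 to 1.93) for *Fabp7* and 1.72 (0.01 to 4.09) for *Gap43*. The values of *Lgi4* (-0.89), *L1cam* (-0.73) and *Ngfr* (-0.26) were lower by less than 2-fold. *Gdnf*, with 3 UMIs in each library, was not compared. The median of the 8 genes was -0.81, against -0.02 for all genes compared. A median-of-ratios scaling moved every log2 ratio up by 0.157, after which 0 of the 8 genes were at or past 2-fold lower and the direction of each was kept.

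Myelin-low cells were 28 of 103 Schwann-like cells in LIP and 20 of 37 in control, so the pooled values ran beside a different mix of cells. Within the myelin-low cells the 3 genes at or past 2-fold lower differed less, and *Fabp7* and *Gap43* more. *Scn7a* had 1350 CPM in LIP and 2074 CPM in control, a log2 ratio of -0.62 (-0.90 to -0.34). *Gfra3* had -0.70 (-1.19 to -0.22), *Cdh19* -0.72 (-1.18 to -0.26) and *Lgi4* -0.66 (-1.11 to -0.20). *L1cam* (-0.29, -0.90 to 0.34) and *Ngfr* (0.18, -0.67 to 1.07) had intervals that include 0. None of the 8 genes was at or past 2-fold lower and 2 were higher, *Fabp7* (1.60, 0.90 to 2.36) and *Gap43* (2.16, 0.45 to 4.53). Among the 2436 genes compared, 6.86% were at or past 2-fold lower and 8.29% higher. The median of the 8 was -0.45, against 0.03 for all genes, and -0.0044 with each cell weighted equally. In the myelin-high cells, 2 members had at least 20 UMIs, *Cdh19* (-0.82, -2.25 to 0.74) and *Lgi4* (-0.18, -1.32 to 1.09). Neutrophil markers were higher in the LIP myelin-high cells, where 10 of 12 were found at 1685 CPM in sum, against 7 at 183 CPM in control, and their part in these values was not tested.

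Most UMIs behind both higher values came from single cells. One LIP myelin-low cell held 97 of the 113 *Fabp7* UMIs, and without it the remaining 16 UMIs stood at 97.5 CPM. Without the highest cell of each library, the log2 ratio of *Fabp7* was -0.70 in the myelin-low cells and -1.06 over all Schwann-like cells, that is, lower in LIP. The cell with 97 UMIs had 7697 UMIs in all and also 6 *Ncam1*, 5 *Sox2* and 4 *Sox10* UMIs. *Gap43* had 17 of its 25 LIP UMIs in 1 cell, the deepest of the myelin-low LIP cells at 14181 UMIs, which also held 56 *Apod* UMIs. The other 8 UMIs lay in 5 cells at 50.7 CPM, against 3 UMIs in 3 control cells. Without the highest cell of each library its log2 ratio was 1.13 in the myelin-low cells and 0.66 over all Schwann-like cells.

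Single cells weighed on other values too. One LIP cell held 72 of the 232 *Scn7a* UMIs, all 3 *Gdnf* UMIs and 358 *Apod* UMIs. Another held 13 of the 38 *Ngfr* UMIs, and without the highest cell of each library the log2 ratio of *Ngfr* in the myelin-low cells went from 0.18 to -0.34. In control, 34 of the 76 *Lgi4* UMIs came from 1 cell with 22506 UMIs, and when each cell was given equal weight, the log2 ratio of *Lgi4* in the myelin-low cells was 0.29, higher in LIP. The shares of myelin-low cells with a UMI after thinning to 1000 UMIs were 60.7% (LIP) and 73.7% (control) for *Scn7a*, 46.4% and 68.4% for *Cdh19*, 25% and 36.8% for *Gfra3*, and 17.9% and 21.1% for *Fabp7*. Before thinning they were 82.1% and 75.0%, 75.0% and 85.0%, 42.9% and 40.0%, and 28.6% and 50%. At 1000 UMIs the thinned shares were higher in LIP for *Lgi4* (32.1% against 26.3% in control), *Ngfr* (17.9% against 10.5%) and *Gap43* (7.14% against 5.26%). For *Gap43* they stood for 2 of 28 LIP and 1 of 19 control cells. Those of *L1cam* and *Gdnf* were lower in LIP. With thinning to 2000 UMIs, the shares of *Lgi4*, *Ngfr* and *Gap43* were lower in LIP instead. *Lgi4* was then found in 18 of 25 LIP and 13 of 16 control cells. *Ngfr* was found in 5 of 25 and 5 of 16 cells, and *Gap43* in 3 of 25 and 2 of 16. The direction for *Lgi4*, *Ngfr* and *Gap43* thus depended on the thinning depth.

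**Figure D3:**
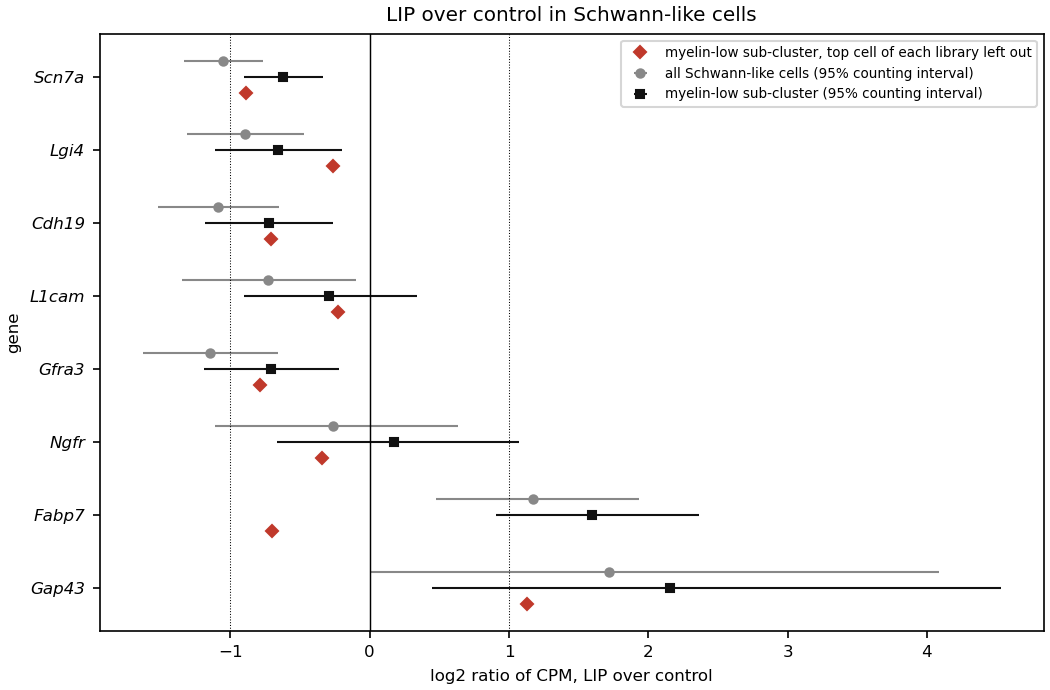
Log2 ratios of CPM, LIP over control (horizontal), for the 8 genes with at least 20 UMIs (vertical). Circles are all Schwann-like cells and squares the myelin-low cells, with exact 95% counting intervals, and diamonds the myelin-low cells without the highest cell of each library. Dotted lines mark 2-fold. *Fabp7* goes from 1.60 to -0.70 when the highest cells are left out.

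Repair genes were read in the same contrast. Of 15 genes of the repair list, 4 could be compared in the myelin-low cells. *Sox2*, a factor of immature and repair Schwann cells, was at or past 2-fold higher in LIP, with 31 UMIs in 14 of 28 cells against 3 UMIs in 3 of 20 cells (log2 ratio 2.47, 0.79 to 4.82). Of the 2436 genes compared there, 8.29% were at or past 2-fold higher in LIP. The numbers of cells with *Sox2* are unthinned, at medians of 5044.5 (LIP) and 3770 (control) UMIs. The LIP cell with the most *Fabp7* UMIs held 5 of the 31 *Sox2* UMIs. *Jun* (0.14, -0.21 to 0.51), *Atf3* (0.49, -0.10 to 1.10) and *Sox4* (0.53, -0.42 to 1.57) had intervals that include 0. The median of the 4 was 0.51, against 0.03 for all genes, and over all Schwann-like cells it was -0.15. In the myelin-high cells *Jun* and *Atf3* had lower values in LIP, with log2 ratios of -1.08 (-1.39 to -0.76) and -1.43 (-2.05 to -0.80). Few control cells held these UMIs. *Jun* had 216 UMIs in 21 of 75 LIP cells and 139 in 5 of 17 control cells. *Atf3* had 50 UMIs in 10 LIP cells and 41 in 4 control cells. Over all Schwann-like cells, *Shh* had 0 UMIs in both libraries, and *Olig1* 1 UMI in LIP and 0 in control. *Bdnf* had 0 UMIs in the LIP Schwann-like cells and 12 in 2 control myelin-low cells.

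Genes of the other lists were at or past 2-fold in either direction in the myelin-low cells, as were 8.29% (higher) and 6.86% (lower) of 2436 genes. Those compared were 3 GDNF family, 2 neurotrophin, 2 LGI and ADAM, 5 further non-myelinating and 6 transcription and ErbB genes. *Pou3f1*, a transcription factor of promyelinating cells, had 68 against 8 UMIs (2.19, 1.13 to 3.46) and *Sdc3*, a proteoglycan that binds Gdnf, 28 against 7 (1.10, -0.13 to 2.54). *Gfra1* had 20 against 24 (-1.16, -2.10 to -0.25), *Adam11* 15 against 21 (-1.39, -2.45 to -0.36) and *Chl1*, a relative of L1cam, 58 against 85 UMIs (-1.45, -1.96 to -0.95). Few cells held some of these: 10 LIP and 2 control cells for *Sdc3*, 7 and 5 for *Gfra1*, and 5 and 9 for *Adam11*. Over all Schwann-like cells *Ntrk3*, *Cadm2*, *Erbb2*, *Erbb3* and *Zeb2* were also at or past 2-fold lower, as were 7.19% of 4754 genes. In the myelin-high cells *Apod* (153 against 19 UMIs, 1.30, 0.60 to 2.07) and *Yap1* (18 against 2, 1.46, -0.61 to 4.61) were at or past 2-fold higher in LIP. The *Yap1* UMIs lay in 14 LIP cells and 1 control cell. No gene of these other lists was at or past 2-fold lower in those cells. None of the 15 myelin genes reached 2-fold in either direction over all Schwann-like cells, where their median log2 ratio was 0.28. Within the sub-clusters the median was -0.45 for the 6 myelin genes compared in myelin-low cells, none of them above 0, and -0.01 for the 15 in myelin-high cells, 6 of them above 0.

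Outside Schwann-like cells the genes differed in where they were found. *Scn7a* was second highest in fibroblast-like cells, with 35 UMIs in 13 of 23 LIP cells (72.3 CPM, 50.4 to 101) and 187 UMIs in 50 of 81 control cells (199 CPM, 172 to 230), a log2 ratio of -1.46 (-2.03 to -0.93). Fibroblast-like cells thus held 46.8% of all *Scn7a* UMIs of the control library. Mural-like cells had 4 and 16 UMIs (6.25 and 27.1 CPM). *Lgi4* was also found in fibroblast-like cells, with 43.4 CPM in LIP and 47.9 CPM in control (-0.14, -0.96 to 0.63), and in osteogenic-like cells, with 12 and 14 UMIs (11.6 and 33.4 CPM). *Cdh19* had 9 and 7 UMIs in osteogenic-like cells.

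*Gap43* had more UMIs outside Schwann-like cells than in them. Fibroblast-like cells held 37 UMIs in LIP (76.5 CPM, in 6 of 23 cells) and 33 in control (35.1 CPM, in 15 of 81 cells), a log2 ratio of 1.12 (0.40 to 1.84), with 11 of the 37 in 1 cell. In the control library its highest level was in lymphatic endothelial-like cells, with 29 UMIs in 10 of 19 cells (109 CPM, 73.3 to 157), above the 32.6 CPM (6.72 to 95.2) of the myelin-low cells, with intervals that overlap. Fibroblast-like control cells were also above that level, again with overlapping intervals. The LIP library held 5 lymphatic endothelial-like cells, with 3 UMIs in 1 of them (53.6 CPM). In LIP the myelin-low cells had the highest level (145 CPM), which depended on 1 cell. Without that cell they stood at 50.7 CPM, under the fibroblast-like and lymphatic endothelial-like cells with all their cells kept.

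*L1cam* was the most widespread member. Epithelial-like cells held 47 LIP UMIs (16.7 CPM) and 166 control UMIs (22.7 CPM, 64.8% of that library's *L1cam*), in 31 of 92 and 92 of 245 cells. Lymphatic endothelial-like cells had 35.8 and 37.8 CPM, and T cell-like cells 3.64 and 34.4 CPM from 1 and 13 UMIs. Vascular endothelial-like cells had 16.1 and 14.5 CPM, neutrophil-like cells 11.7 and 15 CPM, and macrophage-like cells 9.27 and 10.2 CPM. Only *L1cam* among the 9 overlaps another counted gene on its own strand, *Arhgap4*, and reads in that overlap cannot be assigned with certainty. *Arhgap4* had 69 UMIs in LIP neutrophil-like cells and 0 in the Schwann-like cells of both libraries.

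*Ngfr* had 12 LIP and 42 control UMIs in epithelial-like cells (4.27 and 5.74 CPM), in 11 of 92 and 30 of 245 cells, which was 60.9% of the control library's *Ngfr* at a level far under the 195 CPM of the myelin-low cells. *Gdnf* had 3 and 8 UMIs in epithelial-like cells (1.07 and 1.09 CPM) of 7 and 11 in all. *Fabp7* had 1 to 5 UMIs in each of 4 other LIP classes and 2 in control mural-like cells. *Gfra3* was the most restricted. In control all 69 of its UMIs lay in myelin-low cells, and in LIP 79 of 80 did, with 1 UMI in an unnamed cluster next to the epithelial-like cells.

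**Figure D4:**
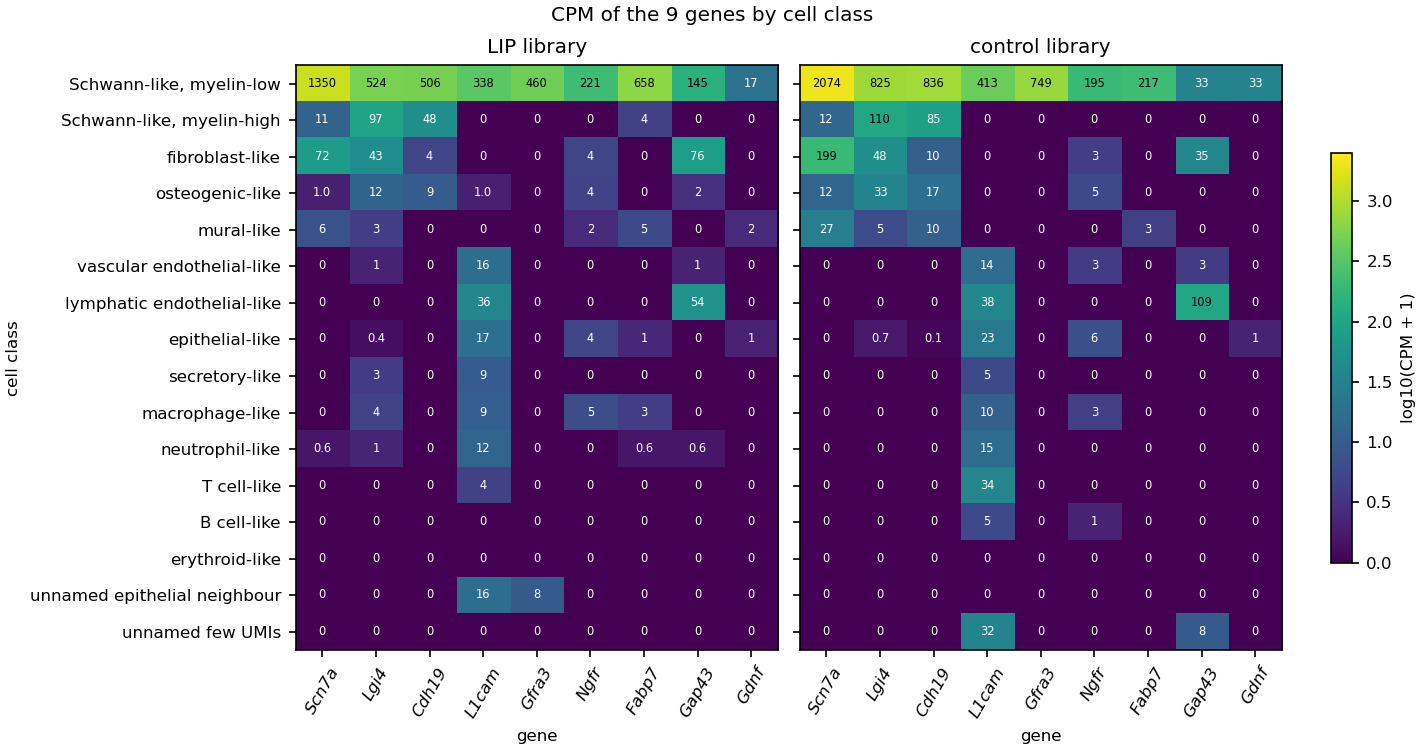
CPM of each of the 9 genes (columns) in each cell class (rows) of the LIP and control libraries, with the value printed in each cell and colour on a log10(CPM + 1) scale. The myelin-low row is the highest for every gene in LIP and for all but *Gap43* in control, where lymphatic endothelial-like (109 CPM) and fibroblast-like cells (35.1 CPM) are above it. For *Gdnf* the rank rests on 3 UMIs in each library (17.5 CPM in LIP, 32.6 CPM in control). Some classes with 0 *Gdnf* UMIs have upper counting limits above these levels, such as lymphatic endothelial-like cells in LIP (66.0 CPM). In LIP the rank of *Gap43* depends on 1 myelin-low cell, without which the row stands at 50.7 CPM, under fibroblast-like cells (76.5 CPM).

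The genes with the most similar level across classes were found by Pearson's r of log2(CPM + 10) over 24 profiles (classes of at least 20 cells in a library) among 13123 genes. The profiles share libraries, and the values are descriptions. All Schwann-like cells of a library formed 1 profile, with both sub-clusters together. For genes found mainly in Schwann-like cells, r therefore rests largely on that profile of each library. It does not describe likeness within Schwann-like cells. *Lgi4* was nearest to *Scn7a* (r = 0.960). *Gpr37l1* was nearest to *Gfra3* (0.987), *Gldn* to *Cdh19* (0.981), *Serpind1* to *Fabp7* (0.988), *Sema3b* to *Lgi4* (0.967), *Sox10* to *Ngfr* (0.969), *Prss12* to *Gap43* (0.927) and *Prrg4* to *L1cam* (0.847). *Gdnf*, with too few UMIs, was not ranked.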

How the data were processed

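The files hold the deposited UMI counts of 31053 genes per barcode, whole numbers without normalization, that the authors made from 10x Genomics 3′ v3 libraries of periodontal cells with Cell Ranger (3.1.0 in the matrix header) on mm10. The 9 genes and the gene lists were chosen with earlier results of these data known. Cells with 200 to 7500 genes, at most 60000 UMIs and at most 10% mitochondrial UMIs were kept. Both libraries were integrated and clustered in Seurat 5.3.0 (R 4.3.3) with 2000 features, the 9 genes held out, 30 dimensions and a resolution of 0.1. The larger clusters were clustered again at 0.2. The 2 sub-clusters of Schwann-like cells were separate clusters at 0.1, and the myelin-low one was too small to be clustered again. Classes were named "-like" from 21 marker lists, where a marker counted if found in at least 25% of cells and more than 2-fold above the rest, and at least 3 were needed. Scrublet (scanpy 1.11.5) marked 1 LIP and 4 control cells as doublets, which were kept, 1 of them Schwann-like.

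UMIs were summed per class and library and divided by the class total. Intervals are exact (Poisson, Clopper-Pearson or conditional binomial, scipy 1.17.1), and a sum of 0 was set to a floor of 3 counts over the group. Genes with at least 20 UMIs in both groups together were compared, and called at 2-fold. The ratio step was tested on simulated Poisson sums, the setting the intervals assume. Those sums leave out unevenness between cells, so the test does not cover it. Sub-cluster comparisons were added after the data were seen. Genes named are the 9, list genes at or past 2-fold in Schwann-like cells or a sub-cluster, and the nearest genes. Further list genes given with few or no UMIs were picked after their values were seen. Loci are from GENCODE vM21 and promoters from RefSeq. Results on some genes are not reported here.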

Additional observations from a re-analysis of the deposited data

How the results depend on the processing

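No paired analysis was possible because each condition has 1 library. A mitochondrial limit of 5% left the shares of the 9 genes' UMIs in Schwann-like cells at 62.8% (LIP) and 40.9% (control), the median log2 ratio of myelin-low over myelin-high LIP cells at 3.33 (4.61 with the limit of 10%) and of myelin-poor over myelin-rich LIP cells at 2.94 (4.19). That limit kept 22 LIP and 7 control myelin-high cells, against 75 and 17 with the limit of 10%. It kept 18 LIP and 14 control myelin-low cells, against 28 and 20. The numbers and mix of Schwann-like cells thus depend on the limit. The number of genes at or past 2-fold higher in LIP was then 1, both in the myelin-low cells and over all Schwann-like cells. Leaving out the highest cell of each gene gave shares of 64.1% and 38.8%, a median of 3.70 for myelin-low over myelin-high LIP cells, and 1 gene higher in LIP in the myelin-low cells and 0 over all Schwann-like cells. The 1 gene was *Gap43*, left with 8 LIP and 2 control UMIs, fewer than the 20 otherwise needed to compare a gene. The log2 ratio of *Fabp7* then turned to -0.70 and -1.06. With each cell weighted equally, 0 genes were higher in either group, the median log2 ratio of the genes in the myelin-low cells went from -0.45 to -0.0044, the log2 ratio of *Lgi4* in the myelin-low cells turned to 0.29, and those of *Fabp7* and *Gap43* over all Schwann-like cells to -0.11 and -0.54. A minimum of 50 UMIs left 1 gene higher in both groups, *Gap43* being under it, and no minimum gave a median of 2.59 for myelin-poor over myelin-rich control cells (4.27 with a minimum of 20). Median-of-ratios scaling left 0 genes lower over all Schwann-like cells. The causes were not tested, beyond what each setting leaves out. For single genes, 375 of 414 values under 13 settings moved by less than their counting interval, 34 moved by more and 5 turned. With 1 library a condition, differences between mice cannot be told apart from those of the condition.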
